A study of Homo sapiens with 4 samples.

Results

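The wild-type peak list describes where RNA of RKO cells was enriched in 1 immunoprecipitate (IP) over its own input. All peaks of that list were taken, and summits of one peak were joined. This gave 57 peaks with 67 summits, of the 87 peaks in the lists of both genotypes. RKO is an established human colorectal cancer line. The wild-type (WT) cells carry no engineered change in the labels, and both of their libraries, input and IP, came from cells grown in the same medium. The list set beside them comes from the same line overexpressing ZCCHC7 (OE), again with 1 input and 1 IP library, and the labels do not say how the overexpression was made. The sources disagree on the antibody. The characteristics of the IP name ZCCHC7, whereas the protocol names SRSF1 on the beads and then an antibody against m6A, so the library is called the IP and no bound protein or mark is stated. With 1 library per group there was no replicate check, and no difference between the genotypes was tested.

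ZCCHC7 is a zinc-knuckle protein that works with poly(A) polymerases and a helicase to mark aberrant nuclear RNA for the exosome. SRSF1 is a splicing factor that binds exonic sequences, and m6A is a methyl mark on adenosines of mRNA. In an RNA immunoprecipitation, fragments held by the antibody are sequenced and set against the same RNA before the pull-down, so a peak is a place where the IP holds more fragments than its input at that depth. Ribosomal RNA, mitochondrial RNA and short structured RNAs are abundant in cells, and multi-copy sequences can collect reads that belong elsewhere.

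The WT IP library held 896288 tags and the input 207641, so the IP was 4.32 times as deep. At every one of the 67 summits the deposited pileup gave a whole number of IP tags (within 0.1), and this number is the strength of a peak used throughout. A tag is 1 mapped read extended to 226 bases, the fragment size in the file header. The fold is the authors' own ratio of the IP pileup plus 1 to the local background plus 1, and the q is the authors' own value. Intervals of counts and ratios are exact 95% intervals that cover counting error only. Of the 57 peaks, 23 (40.4%) had q under 0.05, and 16 (28.1%) overlapped a peak of the OE list by at least 1 base. At 29 peaks the deposited −log10 q was 0, so these passed the caller's p cutoff of 0.005 alone.

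A few short sequences from RefSeq (GRCh38.p14) place members whose exact position bears on what the peak covers. A peak on chromosome 1 has its summit inside the hairpin of MIR12136, 5 bases from the mature miRNA. That peak is 257 bases long, carries no strand and also overlaps pseudogenes, so its tags cannot be assigned to the miRNA. The mature sequence is printed with the seed, bases 2 to 8, in capitals, and lies at chr1:632668-632685 on the minus strand. The peak at EEF1A1 spans the start of the gene, and both of its stretches are read on the minus strand. The summit stretch lies at chr6:73521097-73521126, with the summit base in capitals. The start stretch lies at chr6:73521018-73521047, with the first 15 transcribed bases of the RefSeq gene in capitals.
hsa-miR-12136: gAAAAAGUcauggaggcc
EEF1A1 summit: ggtaaactgggaaaGtgatgtcgtgtactg
EEF1A1 start: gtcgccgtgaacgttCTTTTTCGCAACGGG
The EEF1A1 start shows the pyrimidine run by which mRNAs of the translation machinery are known, and the summit of the peak lies 80 bases before it. No genome sequence was used here, so the letters under the other summits were not examined.

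Peaks of the WT list were placed in 6 classes of position, and the largest lay outside genes. There were 21 peaks outside genes (36.8% of the list, 24.4 to 50.7), 15 over an exon of a protein-coding gene (26.3%, 15.5 to 39.7) and 8 on unplaced scaffolds (14.04%, 6.26 to 25.8). Introns held 7 peaks (12.3%, 5.08 to 23.7), exons of other genes 4 (7.02%, 1.95 to 17.0) and the mitochondrial genome 2 (3.51%, 0.428 to 12.1). Intervals of shares take peaks as independent, although many lie near each other and 8 of the 15 protein-coding exon peaks are of SAE1. Set against the 40.4% of the whole list, q was under 0.05 at 10 of the 15 protein-coding exon peaks, 3 of 4 other exon peaks, 6 of 21 outside genes, 2 of 7 in introns, 1 of 8 on scaffolds and 1 of 2 on the mitochondrial genome. All 8 exon peaks of SAE1 passed, and they make up most of the protein-coding exon peaks that did.

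Peak strength varied over a far wider range than peak length. IP tags at the summit had a median of 63 per peak (quartiles 29 and 165, range 9 to 13245), which is 70.3 tags per 1000000 IP tags. Length had a median of 341 bases (quartiles 257 and 407, range 226 to 1693), and 3 peaks had exactly the extension size of 226 bases. The authors' fold had a median of 3.85 (1.68 to 137.8). Tags were only loosely ordered with length (Spearman's rho 0.168) and with fold (0.153) over the 57 peaks, which share both libraries. Peaks with under 50 tags numbered 25 and those with over 500 tags numbered 8.

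**Figure D1:**
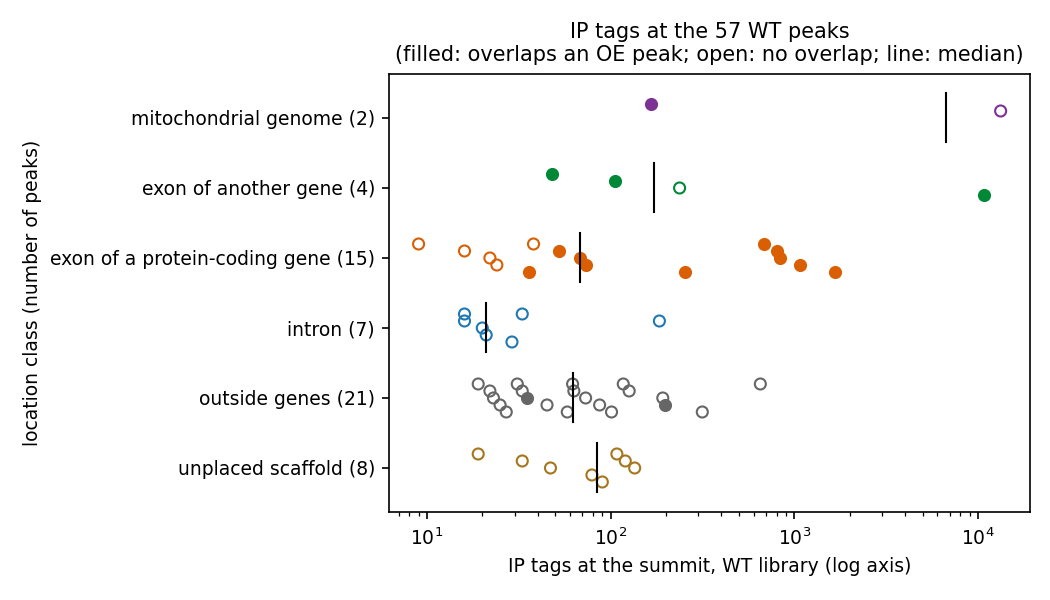
IP tags at the summit of each WT peak (log axis) in the 6 location classes, with the class median as a line; filled points overlap an OE peak and open points do not. Protein-coding exon peaks run from 9 to 1668 tags, intron peaks lie between 16 and 184, and 2 of the 21 points outside genes are filled.

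Most of the summed summit tags lay at a pair of places. Summed over the 57 peaks at 1 summit each, the summits held 33405 tags, 3.73% of all IP tags. MT-RNR2, the large ribosomal RNA of mitochondria, had 13245 of these tags, and the processed pseudogene of SAE1 had 10701. Together they made up 71.7% of the sum, and the summits of the other 55 peaks held 9459 tags (1.06% of the IP library). The 8 exon peaks of SAE1 added 5437 tags, so SAE1 and its pseudogene held 16138 tags, 48.3% of the sum. The 46 remaining nuclear and scaffold peaks had 3857 tags at their summits (0.430% of the IP library), a small share spread over many positions. Tags elsewhere in a peak, including those at further summits of the same peak, are left out of these sums.

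Protein-coding exon peaks were led by SAE1, which encodes a subunit of the enzyme that activates SUMO. On the plus strand of chromosome 19, exons 1 to 7 and exon 9 of its longest coding transcript each carried 1 peak. Exon 1 had 1668 IP tags (1589 to 1750) and 11 input tags, 35.1 times the input share (19.6 to 70.5). Exons 7, 3, 9 and 2 followed with 1072, 831, 806 and 681 tags over 4, 2, 5 and 2 input tags. The weakest, exons 4, 5 and 6, had 254, 73 and 52 tags over no input tag at the summit, so only a bound can be given, at least 19.6-fold, 5.64-fold and 4.02-fold higher with 3 input tags as the floor. Within this gene the tags thus differed by exon well beyond counting error, from 52 (38.8 to 68.2) to 1668. These intervals take reads as independent although duplicates were kept. Exon length, 100 to 1033 bases, was not taken into account. The pseudogene shares sequence with these exons, so how the tags divide between gene and copy is uncertain.

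The other 7 peaks over protein-coding exons were each the sole exon peak of their gene and were far weaker, with a median of 24 tags (9 to 68). RAD21, the cohesin subunit that separase cuts when sister chromatids part, had the most, 68 tags (52.8 to 86.2) over 3 input tags. That is 5.25 times the input share (1.72 to 26.1), and it passed q under 0.05. DEAF1, a transcription factor, had 38 tags over no input tag, at least 2.93-fold higher, and it also passed. Its peak (chromosome 11, 674536 to 674791) coincides with exon 10 of the longest coding transcript, since 248 of its 256 bases are coding exon, and the antisense gene AC131934.1 covers the same place on the other strand. No peak of the OE list lay there.

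EEF1A1 encodes the elongation factor that brings aminoacyl-tRNA to the ribosome. Its peak (chromosome 6, 73521000 to 73521229) had 36 tags (25.2 to 49.8) over 1 input tag, 8.34 times the input share (1.40 to 338.4), and q was not under 0.05. By the RefSeq start, 197 of the 230 bases lie before the gene and 33 after it. The deposited annotation has a longer first exon in another transcript that covers the whole peak as 5′ UTR, whereas the longest coding transcript covers 19 bases of it. The choice of transcript therefore decides whether this peak is exonic or lies mostly upstream.

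The remaining 4 peaks of this class did not reach q under 0.05. UBXN4, an endoplasmic reticulum protein of the ubiquitin system, had 24 tags over 1 input tag. RBM19, a nucleolar protein of ribosome assembly, had 22 over 1, and the lower bounds of both ratios were under 1 (0.907 and 0.824). ZCRB1, a component of the minor spliceosome, had 16 over none, in a peak that covers exons 6 and 7 and that also lies in PPHLN1 on the other strand. KDM5A, a histone demethylase, had 9 tags over none, the fewest of any peak in the list, and no fold is given since 3 input tags, the floor, would make up a larger share of their library.

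Over the coding transcripts, most summits lay inside an exon, and 10 of the 14 peaks that covered 1 exon ran past both of its ends. At 14 of the 15 peaks 1 exon of the longest coding transcript was covered, and the summit lay inside it at 12, the exceptions being UBXN4 and EEF1A1. At UBXN4 the summit lay 47 bases before the 55-base exon 7. The 10 peaks past both exon ends ran beyond them by 91 to 187 bases on each side, whereas the KDM5A peak lay wholly inside a 411-base exon. These flanks are shorter than the 226 bases to which each tag is extended. Coding sequence was overlapped by 14 of the 15 peaks. A 5′ UTR was overlapped by 5 and a 3′ UTR by 8 when all annotated transcripts counted, against 2 and 1 on the longest coding transcript, which were exon 1 of SAE1 with EEF1A1 and exon 9 of SAE1.

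**Figure D2:**
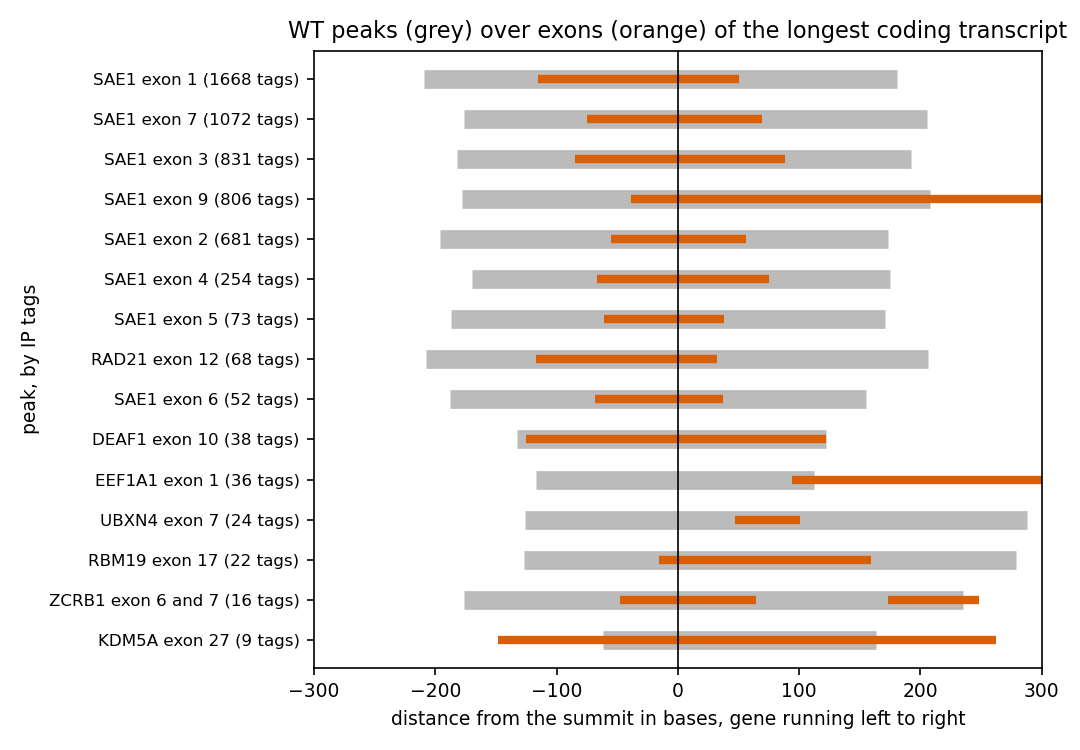
Extent of the 15 protein-coding exon peaks (grey) and of the exons they cover (orange, cut at the edge of the plot) in bases from the summit, with each gene running left to right and peaks ordered by IP tags. The summit at 0 falls inside an exon in all rows but UBXN4 and EEF1A1.

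Exons of other genes held 4 peaks, among them an RNA enzyme component and 3 pseudogene or antisense positions. RMRP, the RNA of the RNase MRP complex that cuts ribosomal RNA precursors, had 106 tags (86.8 to 128.2) over 2 input tags, 12.3 times the input share (3.32 to 102.7), on chromosome 9 at 35657609 to 35658004. The pseudogene of SAE1, listed as AP003040.1 and as SAE1P1 in RefSeq, had 10701 tags over 17, 146 times the input share (91.0 to 250.4). Its single 1011-base peak began 90 bases into the 1024-base gene and ended 77 bases past its end. The peak at the MTCO1P12 and MTCO2P12 pseudogenes of mitochondrial cytochrome oxidase had 48 tags (35.4 to 63.6) over 2 input tags, 5.56 times the input share (1.46 to 47.2). Exons of these pseudogenes cover 117 of its 257 bases, and its summit lies outside them. This is the peak whose summit lies in the MIR12136 hairpin, and q was not under 0.05. Both pseudogenes are on the plus strand, and AL669831.3, a transcribed processed pseudogene, covers the place on the minus strand.

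ANKDD1A, an ankyrin-repeat gene on the plus strand of chromosome 15, carried the pair of longest peaks in the list. They were 1655 and 1693 bases long, 423 bases apart, and held 8 summits over 3771 bases (64951284 to 64955054). From first to last the summits had 274, 135, 56, 237, 158, 91, 184 and 37 IP tags, and 6 of the 8 had q under 0.05. The tags did not run in 1 direction along the stretch, and none of the last 7 summits lay in an annotated exon. The input had 16 tags at the first summit and 3 or 4 at the 5 others where the summit itself set the background. The first peak counts as an exon peak only because 152 of its bases lie in AC103691.1, an antisense gene on the other strand. The second lies in an intron, 2049 bases from the nearest exon, and neither overlapped an OE peak.

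**Figure D3:**
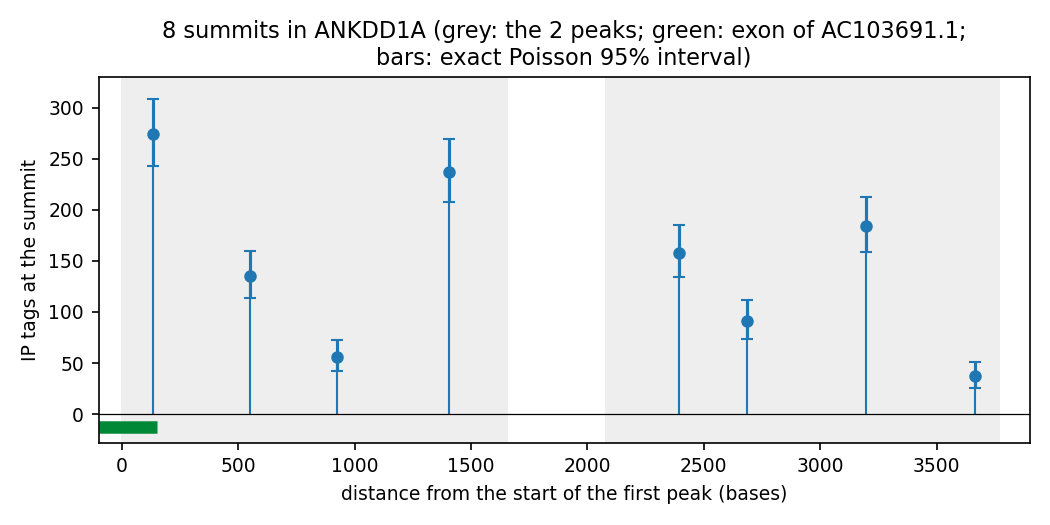
IP tags at the 8 summits in ANKDD1A against distance in bases from the start of the first peak, with exact Poisson 95% intervals, the 2 peaks in grey and the exon of AC103691.1 in green. The 2 highest summits, both in the first peak, have 274 and 237 tags, and the last summit is lowest at 37.

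Intron peaks were few and weak apart from ANKDD1A, which had 184 tags over 4 input tags (10.7 times, 4.09 to 39.5). The other 6 had 16 to 33 tags. LINC00486, a long intergenic noncoding RNA gene on chromosome 2, had 33 tags (22.7 to 46.3) over none and was the only one of these 6 with q under 0.05. DPH6, an enzyme of diphthamide synthesis, had 29 tags over 1 input tag, and AC118549.1, which RefSeq names ZZZ3, had 21 over none. DLEU1, a long noncoding RNA gene, had 20 tags over none, and HIPK3, a protein kinase gene, and CCSER1 had 16 each over none. The HIPK3 peak lay 37 bases from the nearest exon, and the others 1482 bases (DLEU1) to 47519 bases (DPH6) away. None of the 7 overlapped a peak of the OE list.

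Peaks outside genes and on scaffolds together numbered 29 (50.9% of the list), with 2934 tags at their summits (0.327% of the IP library). Most of the 21 outside genes lay far from an annotated gene, and most of the 29 lay near another peak. The nearest gene was a median of 128336 bases away for the 21 outside genes (8396 to 3601811), over 100 kb at 14 and over 1 Mb at 3, and RefSeq had no gene at any of them. Within 100 kb of another peak lay 22 of the 29, against 34 of all 57 peaks, which include the 8 of SAE1. No annotation of repeats or centromeres was used here.

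By tags, the strongest of these lay on chromosome 3 (93470452 to 93470707) with 652 tags over 59 input tags, 2.56 times the input share (1.96 to 3.401). A peak on chromosome 1 (125180014 to 125180533) had 315 over 22, 3.32 times (2.15 to 5.37). The chromosome 12 peak (66057457 to 66057825) stood apart, with 197 tags over 1 input tag, 45.6 times the input share (8.10 to 1812) and the authors' fold of 23.3. Its nearest gene was RNA5SP362, a 5S ribosomal RNA pseudogene, 8396 bases away. Next came chromosome 4 (49149300 to 49149647) with 192 over 20, 2.22 times (1.40 to 3.72), and scaffold KI270438.1 (109851 to 110089) with 135 over 13, 2.41 times (1.36 to 4.64). Apart from the chromosome 12 peak, these had many tags in both libraries and a low ratio.

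The same held over the group. Where the input had tags at the summit, 19 of 25 such peaks had under 4 times the input share, and IP and input tags were ordered alike (Spearman's rho 0.790, 25 peaks that share both libraries). The p cutoff shapes both values, since a peak is listed only if its IP tags exceed its background by enough. With 1 input tag the lowest listed ratio was 5.10, whereas with 17 input tags a peak at 1.72 was listed. Ratios at unlike input tags are thus not directly comparable. The median ratio was 3.36 outside genes and 2.61 on scaffolds, against 35.1 at the 9 protein-coding exon peaks with input tags (5.10 to 96.3). SAE1 makes up 5 of those 9, with a median of 62.1 (35.1 to 96.3), and the other 4 had a median of 5.41 (5.10 to 8.34). Clusters were found on chromosome 1 at 125178967 to 125182635 (3 peaks, 489 tags) and 143202642 to 143233223 (4 peaks, 220 tags). Others lay on chromosome 4 at 49092641 to 49154657 (5 peaks, 332 tags) and on KI270438.1 (4 peaks, 453 tags). When peaks up to 100 kb apart were joined, a distance chosen after the positions were seen, the 57 peaks formed 33 loci, of which 10 held several peaks and 34 of the 57.

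Of the 2 mitochondrial peaks, MT-RNR2 was strong in tags and low in ratio. MT-RNR2 had 13245 IP tags, and also 1382 input tags, so it stood at 2.22 times the input share (2.1004 to 2.35). The MT-ND4L and MT-ND4 peak, over a pair of overlapping genes for complex I subunits, had 165 tags and did not reach q under 0.05. A wider window of input tags set its background, so no ratio is given, and the authors' fold was 2.08. MT-RNR2 had no overlap in the OE list, while the MT-ND4L and MT-ND4 peak had one.

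How the background was set differed between classes. At 40 peaks the input tags at the summit set it, and there the IP and input tags correlated across peaks (Spearman's rho 0.675), an order that the p cutoff itself favours. At 3 peaks a wider window of input tags set it, and at 1 of these, on chromosome 4, the window's value of 0.429 tags means that the summit had no input tag. At 14 there was also no input tag at the summit, and the genome-wide value of 0.224 tags applied, which follows from the genome size of 209714707 bases given to the caller. That size is below the human genome's, as peaks reach base 143233223 of chromosome 1 and 135770010 of chromosome 2. The fold and p of these 14 peaks depend on it. Those 14 were 6 protein-coding exon peaks, 5 of the 7 intron peaks, 2 outside genes and 1 on a scaffold. Of the 40 ratios, 8 had a lower bound under 1. The weakest peak inside the cutoff, on chromosome 1 (143217265 to 143217750), had 27 tags and a p of 0.00453, and the next had a p of 0.00284. No peak outside the cutoff was analysed here.

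**Figure D4:**
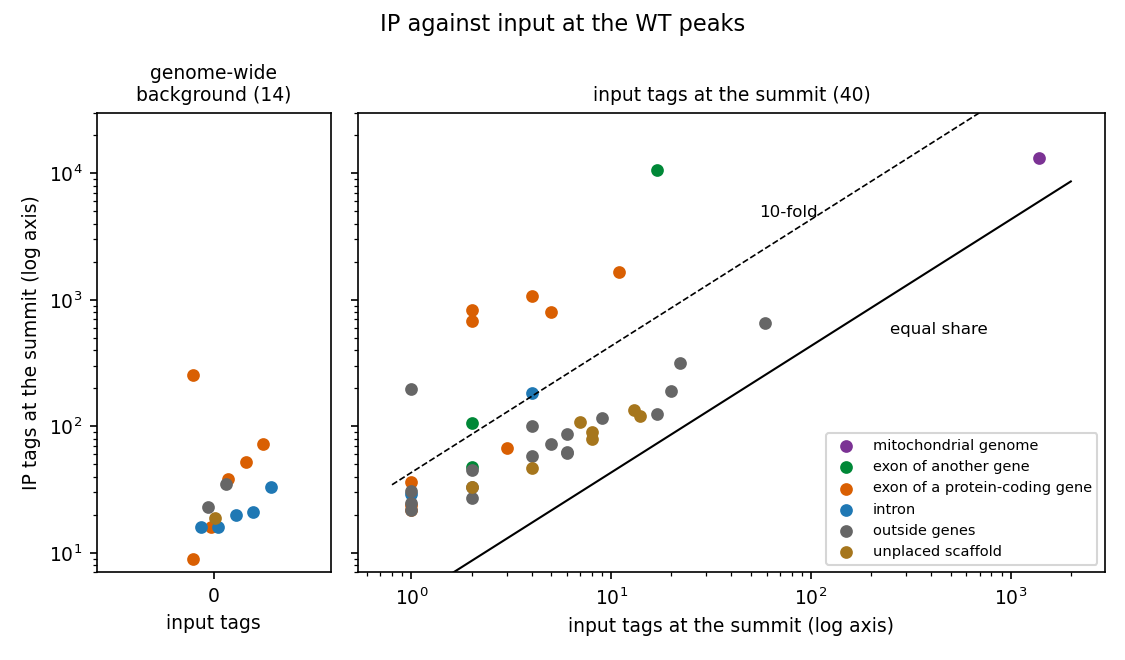
IP tags against input tags at the summit (both log axes) for the 40 WT peaks with input tags there, and at left the 14 with none that took the genome-wide background; the solid line marks equal shares of both libraries and the dashed line 10 times the input share. Grey and brown points, outside genes and on scaffolds, lie mostly between the lines, with 1 exception at 197 tags over 1 input tag. The 5 SAE1 exons with input tags and the pseudogene lie above the dashed line.

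Of the 57 WT peaks, 16 overlapped a peak of the OE list, and 41 (71.9%, 58.5 to 83.0) did not. The 16 are 28.1% of the WT list (17.0 to 41.5) and 53.3% of the 30 OE peaks. They were the 8 SAE1 exons, the SAE1 pseudogene, RAD21, EEF1A1, RMRP, the MTCO1P12 and MTCO2P12 position, MT-ND4L with MT-ND4, and 2 positions outside genes. Against 28.1% for the list, 10 of 15 protein-coding exon peaks overlapped, 3 of 4 other exon peaks, 2 of 21 outside genes and none of 7 intron or 8 scaffold peaks. Without SAE1 the protein-coding share was 2 of 7. The 2 positions outside genes were the chromosome 12 peak and one on chromosome 4 (49092641 to 49092974), named for its overlap, with 35 tags over no input tag, at least 2.70-fold higher, and 30560 bases from CWH43. Where the lists overlapped, the summits lay a median of 4 bases apart (0 to 32).

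The 41 WT peaks with no overlap were mostly weak. They had a median of 45 tags (9 to 13245) against 181 (35 to 10701) for the 16, a median fold of 3.05 against 19.0, and q under 0.05 at 10 of 41 against 13 of 16. Without SAE1 and its pseudogene, the 7 overlapping peaks had a median of 68 tags and a median fold of 4.67, with q under 0.05 at 4. The 10 with q under 0.05 were MT-RNR2, both ANKDD1A peaks, DEAF1, LINC00486 and 5 positions outside genes or on a scaffold. The OE libraries were deeper, with 2725742 IP tags and 396820 input tags. The tags and background of each of the 41 peaks were scaled from the WT depths to the OE depths. The recomputed Poisson p then stayed under the cutoff of 0.005 at all 41, with 0.00118 as the largest. The reason for the missing overlaps was not tested. A peak in 1 list alone says only that it was called there.

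Of the 57169 gene symbols in the annotation, 26 (0.0455%) had a peak, so a list of a few genes holding none or 1 is no result about that list. A peak names a place and no level, so a gene without one may still be expressed. Among 18 genes of the SUMO pathway only SAE1 had a peak, among 12 of cohesin and its regulators only RAD21, and among 8 of translation elongation only EEF1A1. Of 15 genes of RNase MRP and P and abundant short RNAs only RMRP had one, and of 37 mitochondrial genes 3 did. None of 20 exosome and cofactor genes, 12 SR protein genes, 20 m6A genes or 20 colorectal cancer drivers had a peak. The same was true of 10 epithelial, 5 blood and 5 stromal markers, so the labelled cell type could not be checked from these peaks.

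By strand, 28 peaks lay in genes of 26 symbols. The genes were on the plus strand alone at 17 peaks, on the minus strand alone at 7 and on both strands at 4. The peak list carries no strand, so at those 4 the tags cannot be assigned to either strand. They are AL669831.3 against MTCO1P12 and MTCO2P12, DEAF1 against AC131934.1, ZCRB1 against PPHLN1, and ANKDD1A against AC103691.1.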

How the data were processed

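RNA was sequenced from 1 WT input and 1 WT IP library, with 1 library of each kind for OE beside them. The peak list was made by the authors with MACS 2.1.0.20150420, per the file headers, on 1 IP against its input. The headers give a p cutoff of 0.005, duplicates kept, the larger library scaled to the smaller and a fragment size of 226 bases. They also say that q was not calculated, although the deposited q column holds values. In the header of the OE list the treatment alignment is named OE where the WT header has IP, and it was taken as the OE IP. The submitters' processing notes name FastQC 0.11.5 and HOMER. Which aligner and build were used is not given in the sources used here.

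For every summit, the authors' deposited list gives the pileup signal after scaling to the input library, with a fold ratio and −log10 p and q values. Other columns hold the peak positions that the authors deposited. Of 36018 gene symbols found both in the deposited annotation and in RefSeq on GRCh38.p14, 99.9% had overlapping positions. From these values, whole IP tags (within 0.1) and input tags (within 0.02) were recovered, which was tested on simulated data. A peak with several summits is represented by the one with the smallest p. Recomputed p-values at 52 peaks matched the deposited −log10 values of the authors within 0.0108. A fold against no input tag is a lower bound from a floor of 3 input tags. Python 3.11.15, pandas 2.3.3, SciPy 1.17.1 and matplotlib 3.10.9 were used.

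Location classes were taken in order: mitochondrial genome, scaffold, protein-coding exon, other exon, intron, outside genes. Every gene with a peak is named, and of the peaks outside genes and on scaffolds the 5 with the most tags are given with their positions. The members and lists were chosen with earlier results of these data known. Intervals are exact (Clopper-Pearson for shares of peaks, Poisson for tags, binomial for ratios) at 95%, and reads without molecular identifiers are not independent molecules. The splicing tables were not used here.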

Additional observations from a re-analysis of the deposited data

How the results depend on the processing

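Shares and medians were judged by the 95% interval of the value reported, and counts by a factor of 1.5. By these rules 44 of 52 alternative values stayed and 8 moved. The intervals are wide, and some alternatives could not change the value, such as the mitochondrial and scaffold shares with protein-coding genes alone. The 44 is thus no measure of stability. With q under 0.05 alone, the scaffold share was 4.35% and the protein-coding exon share 43.5% of peaks. With protein-coding genes as the only annotation, the share at exons of other genes was 0.0% by construction. With each summit counted on its own and placed by its position, both changed together after seeing the data, introns held 23.9%; with the peak's class kept, they held 16.4%. Without SAE1 and its pseudogene, 7 WT peaks overlapped the OE list. On the longest coding transcript, 2 peaks overlapped a 5′ UTR and 1 a 3′ UTR. Without the mitochondrial peaks, an alternative chosen after seeing the data, the top pair of peaks held 61.9% of summed tags. A joining distance of 10 kb gave 44 loci and 1 Mb gave 32, also chosen after seeing the data. Sequence motifs at the summits were not run, since no genome was given. No paired analysis was possible because each group holds 1 library and the labels carry no replicate numbers. Depth limits the weak peaks: 25 of 57 rest on under 50 IP tags, and 15 have no input tag at the summit.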
